A study of Mus musculus with 64 samples.

Results

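The genes described here are 8 drivers and tumor suppressors of the KPC model of pancreatic cancer: Trp53, Cdkn2a, Cdkn2b, Cdkn1a, Mdm2, Smad4, Rb1 and Mtap. They were taken as a list of symbols, 8 of the 39017 genes in the deposited count table, and the list itself sets no threshold on a measured value. The question was whether any clone had lost the transcript of one of them, and how their levels differed between clones and cultures. All 8 passed the filter on low counts, which kept 14134 genes. The samples were mouse pancreatic tumor cells of the C57BL/6 mixed background: 7 clones, each named by a letter (E, H, K, M, N, T, V), which were subcloned from a polyclonal line of a single KPC tumor, and a further KPC line, KPC1. Each line was measured in mono-culture and after 48 h of direct coculture with fibroblasts, from which the tumor cells were sorted by their GFP. There were 4 libraries for each of the 16 combinations of line and culture, 64 in all. Whether mono-cultures were also sorted is not given in the labels.

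In KPC mice a Cre recombinase driven by the pancreatic Pdx1 promoter switches on an activated oncogene and a point-mutant Trp53 allele, so every sample, mono-cultures included, carries these alleles, and no sample without them was analysed here. Reads were counted per gene, so the mutant and the normal Trp53 transcript were not separated. Each letter is 1 clone and its 4 libraries are repeat cultures of that clone. In tests on libraries, p-values thus measure only the spread between these cultures, which may be technical. In tests across lines and between clone groups, the lines or clones were the replicates.

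The genes belong to the main brakes on the cell cycle. Trp53 encodes p53, a transcription factor activated by DNA damage and oncogenic stress. It switches on Cdkn1a, whose product p21 inhibits cyclin-dependent kinases, and Mdm2, the ubiquitin ligase that in turn degrades p53. Cdkn2a encodes 2 unrelated proteins from overlapping exons: p16Ink4a, an inhibitor of the kinases Cdk4 and Cdk6, and p19Arf, which restrains Mdm2. Cdkn2b next to it encodes p15Ink4b, a further inhibitor of Cdk4 and Cdk6 that TGF-beta can induce. Those kinases inactivate the retinoblastoma protein encoded by Rb1, which otherwise holds E2F transcription factors in check. Smad4 is the shared partner of the SMAD proteins that carry TGF-beta and BMP signals to the nucleus. Mtap, a neighbor of Cdkn2a, encodes the enzyme that recycles methylthioadenosine in methionine salvage, and it is often deleted together with CDKN2A in human pancreatic tumors.

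Library totals ran from 11178721 to 21333683 counts. Of the epithelial markers, Krt18 was between 968 and 1546 CPM (read counts relative to the library total) in the mono-culture means, whereas Epcam was at most 0.37 CPM in every line and Cdh1, which encodes E-cadherin, ranged from 0.998 CPM in M to 304 CPM in V. The 10 fibroblast markers summed to between 47.9 and 254 CPM in mono-culture libraries and between 213 and 1889 CPM in coculture libraries, and 9 of 9 tested were called higher in coculture. Of the 10, Lum and Thy1 had no count in any mono-culture library, and the mono-culture sum came mostly from collagen and PDGF receptor genes. The sample numbers in the labels run from 1 to 43 and from 44 to 64 on what is inferred here to be 2 sheets. The mono-cultures of K were all on the second and those of E, V and N all on the first, so in mono-culture K could not be compared with these 3 lines within a sheet. The 4 leukocyte markers together did not pass 0.235 CPM in any library.

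No clone lacked any of the 8 transcripts. Of 128 combinations of gene, line and culture, 0 were near zero (at most 3 counts over 4 libraries, or under 0.1 CPM), and 0 were under 0.1 RPKM. The lowest was Cdkn1a in mono-cultured M, with 141 counts over 4 libraries, and the next lowest held 402. Cdkn1a in mono-cultured M was also the 1 combination under 0.1 of the median of the other lines in the same culture. Transcript levels say nothing of losses that leave the messenger RNA in place, such as point mutations.

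Compared per length, as the median RPKM over the 16 line and culture means, Cdkn2a stood highest at 149 RPKM. Cdkn2b followed at 85.6 and Trp53 at 72.8 RPKM. Smad4 was at 30.6, Mtap at 25.7, Mdm2 at 15.4 and Cdkn1a at 11.1 RPKM. Rb1 was lowest at 3.85 RPKM.

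**Figure D1:**
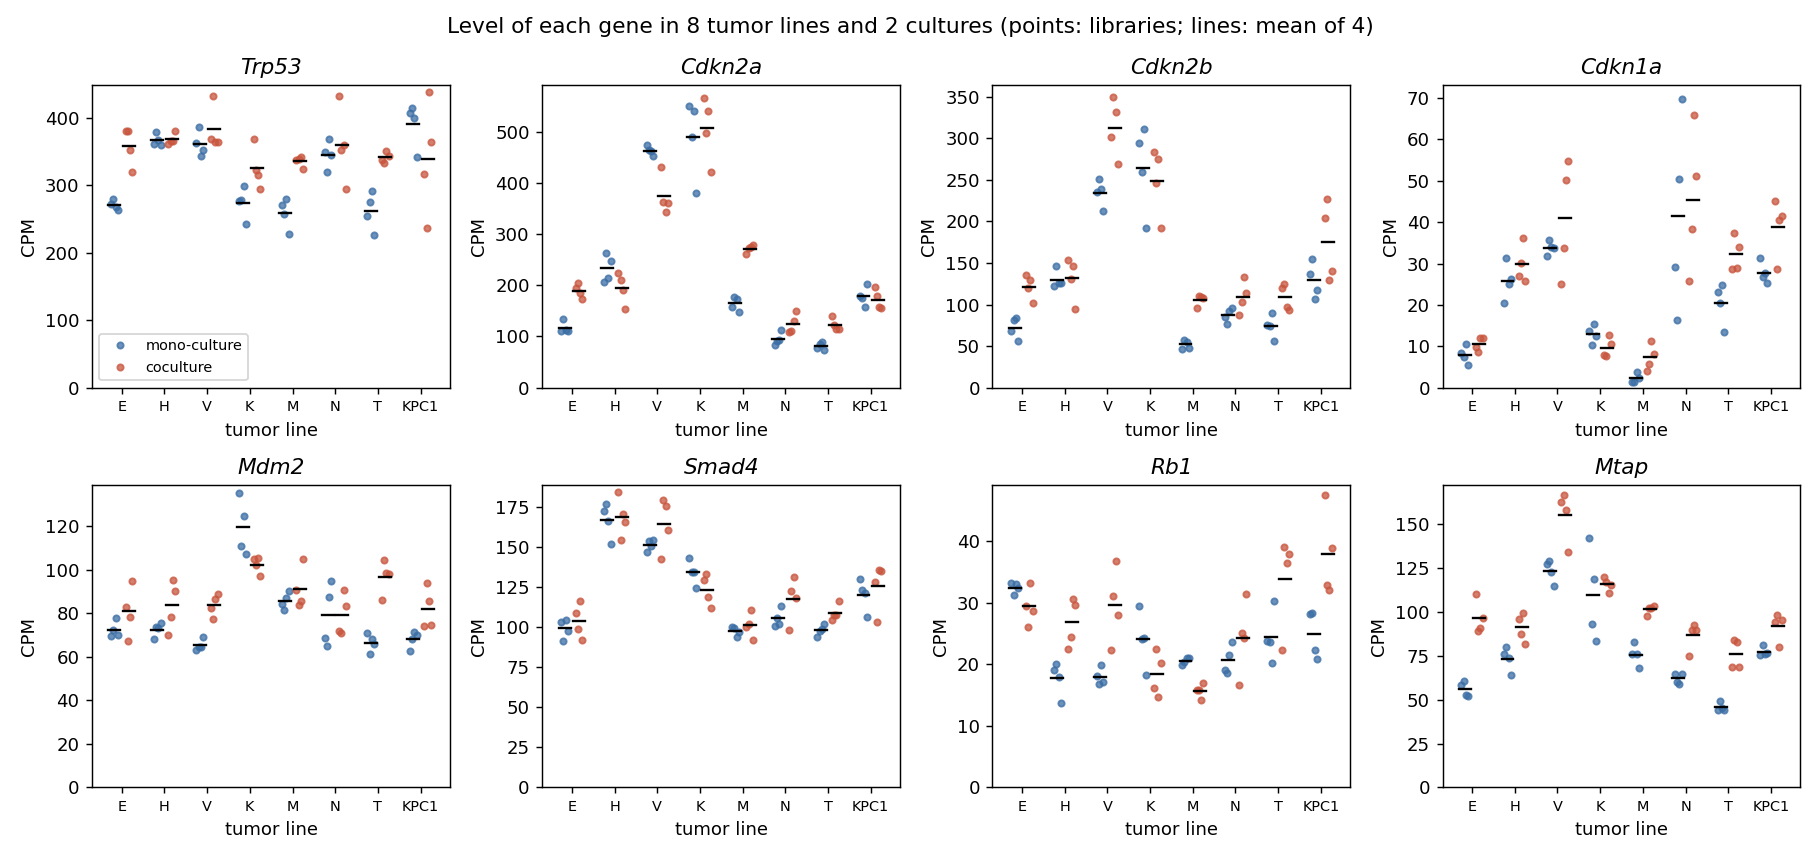
CPM of each gene (vertical axis, from 0) in the 8 lines (horizontal axis), in mono-culture (blue) and coculture (red); points are libraries and black lines the mean of 4. Cdkn1a was close to the axis in M alone, at 2.22 CPM in mono-culture, and Cdkn2a and Cdkn2b were highest in V and K.

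To ask how far each line stood from the rest, each was compared in mono-culture with the mean of the other 7 lines by edgeR's quasi-likelihood test, with p-values adjusted by Benjamini-Hochberg over all genes and called under 0.1. Of 64 pairs of gene and line, 49 were called, 23 higher and 26 lower. Over all genes tested 57.6% of the pairs were called, 31% higher and 26.7% lower. With a difference over 1 on the log2 scale as well, 11 of 64 pairs were called, against 14.6% over all genes. The 11 pairs belonged to Cdkn2a and Cdkn1a with 4 each and Cdkn2b with 3, and Trp53, Mdm2, Smad4, Rb1 and Mtap had none. The 8 comparisons share libraries.

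Cdkn1a varied most between lines, 18.7-fold between the highest and the lowest mono-culture mean. The 4 mono-culture libraries of M held 1.41, 1.48, 3.74 and 2.25 CPM. In E they held 8.42, 7.38, 10.5 and 5.57 CPM, and in K 13.7, 10.3, 15.5 and 12.6 CPM. All 4 libraries of M lay below every library of the other lines. M was at 0.0861 of the median of the other lines (25.8 CPM), and its difference from their mean was -3.28 ± 0.30 (adjusted p = 6.49e-14) on the log2 scale. E was lower too, at -1.16 ± 0.24 (adjusted p = 5.93e-05). The other end was held by V with 31.8, 35.8, 34.1 and 33.7 CPM, a difference of 1.22 ± 0.19 (adjusted p = 3.01e-07), and by N, at 1.55 ± 0.19 (adjusted p = 5.65e-10). In N the 4 libraries were far apart, at 29.1, 16.5, 50.4 and 69.7 CPM, and they overlapped those of V. Libraries 3 and 4 of N, the higher pair for Cdkn1a, were also the higher pair for Mdm2, whose values there were 68.8, 65.1, 87.6 and 95.1 CPM. KPC1 (27.7 ± 2.57 CPM, SD, n = 4), H (25.8 ± 4.44) and T (20.4 ± 4.95) lay between, with overlapping ranges between neighbors in that order.

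Cdkn1a lies on chr17:29090976-29100727 (GRCm38, plus strand). RefSeq gives it 2 starts that are 2790 bases apart. The window of the first (chr17:29090729-29091028, plus strand, GRCm38.p6) is shown because it holds the p53 element, in capitals, through which p53 is known to switch the gene on:
Cdkn1a first start: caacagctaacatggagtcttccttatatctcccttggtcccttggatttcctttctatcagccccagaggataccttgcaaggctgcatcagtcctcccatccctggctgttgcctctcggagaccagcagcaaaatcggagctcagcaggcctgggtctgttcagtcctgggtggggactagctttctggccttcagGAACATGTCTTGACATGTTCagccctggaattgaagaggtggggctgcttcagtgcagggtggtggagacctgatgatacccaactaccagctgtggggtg
The element covers 20 bases (chr17:29090928-29090947) and ends 32 bases before the first start and 2822 bases before the second. The search took 2 half-sites of the p53 consensus with no spacer, both strands, with the central C and G of each kept and at most 1 other letter off, a form chosen after the window was seen. It matched 22 of 32851 promoter windows (0.067%), and no window of Trp53, Mdm2, Cdkn2a, Cdkn2b or Mtap. Of 32 other known p53 targets, 23 had a window and 1 of these, Ccng1, was matched. A window without a match thus does not show that a gene has no p53 element. Whether p53 was bound there was not measured.

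The genes around Cdkn1a were examined for a wider loss in M. Of 30 other tested genes within 1 Mb, 13 were called higher in mono-cultured M than in the mean of the other lines and 7 lower, with a median difference of 0.13 on the log2 scale. Over all genes tested in M, 33.8% were called higher and 28.9% lower. Srsf3, upstream of Cdkn1a, was at 118 CPM in M against a median of 142 CPM, and Stk38 at 169 against 134 CPM. The 2 neighbors called lower by over 1 on the log2 scale were both weakly expressed. One was Mdga1, at 0.0919 CPM in M. The other was Trp53cor1, a p53-induced long noncoding RNA also known as lincRNA-p21, whose gene (chr17, first base 29057430) lies next to Cdkn1a. Trp53cor1 had 1 count over the 4 mono-culture libraries of M, 4 in K, 9 in E, 9 in V and 22 in H, and 60 to 66 in T, KPC1 and N. The lines lowest in Cdkn1a (M, E and K) were thus among the 4 lowest in Trp53cor1, but V, high in Cdkn1a, was low as well.

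The p53 targets at large were called in both directions in M. Of 32 other p53 targets tested, 10 were called higher in M, 10 lower and 12 not called. Over all genes tested in M, 33.8% were called higher and 28.9% lower. The median of the p53 targets was -0.07 on the log2 scale, against 0.02 over all genes. Among those called lower, chosen after their values were seen, were Gadd45a, a growth arrest gene (-1.83), Phlda3, an inhibitor of Akt (-1.41), Aen, an apoptosis nuclease (-1.41), and Sesn2 (-1.24). Among those called higher were Btg2, an antiproliferative gene (2.45), Ddb2, a DNA repair gene (1.28), and Sesn1 (1.00). Trp53 itself had its lowest mean in M, at 259 ± 23.1 CPM.

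**Figure D2:**
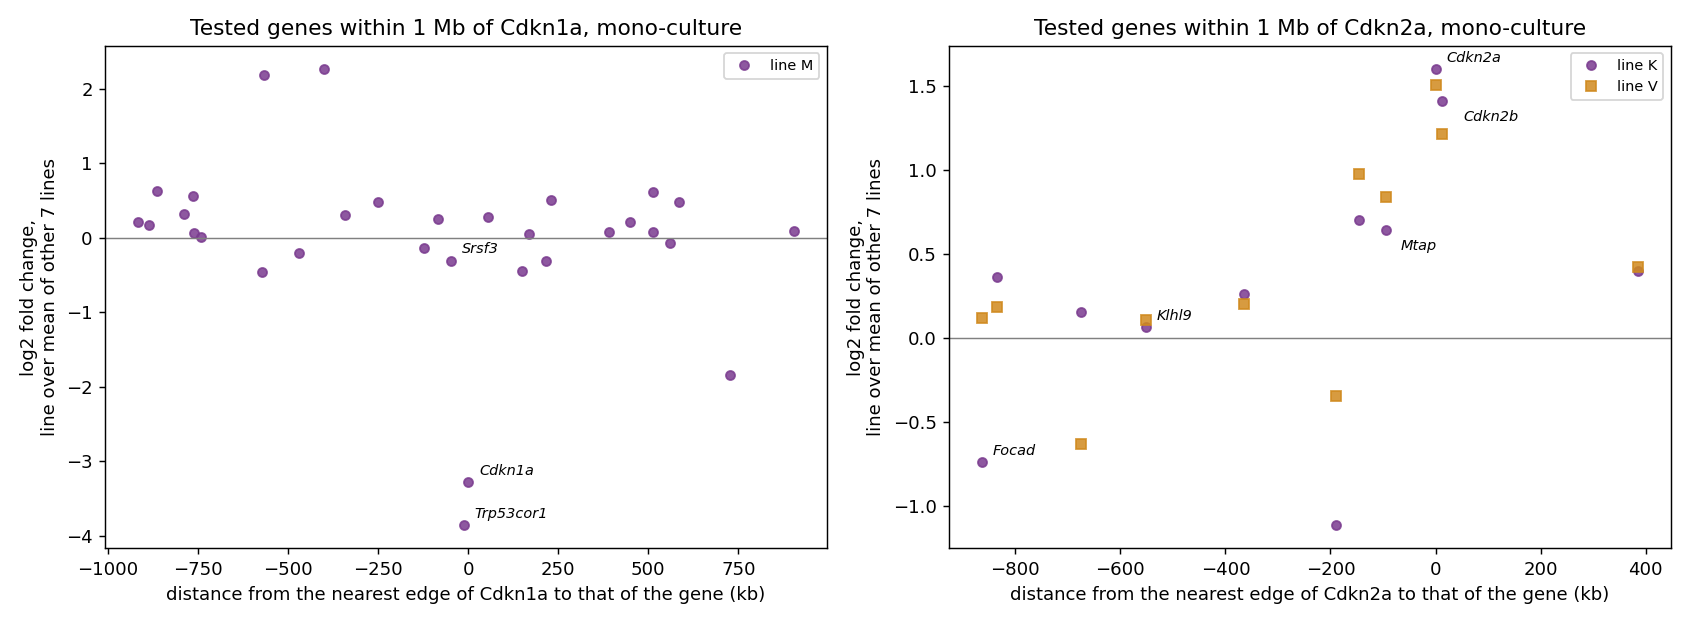
Log2 difference between a line and the mean of the other 7 lines in mono-culture (vertical axis) for the tested genes within 1 Mb of Cdkn1a (left, line M) and of Cdkn2a (right, lines K and V), by the distance between gene edges in kb (horizontal axis). On the left Cdkn1a at -3.28 and Trp53cor1 stand below the other genes. On the right the 5 genes from Gm12602 to Dmrta1 are above 0 in both lines.

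Cdkn2a, Cdkn2b and Mtap lie within 174 kb of chromosome 4 (GRCm38): Mtap at chr4:89137122-89181081 on the plus strand, Cdkn2a at chr4:89274471-89294653 and Cdkn2b at chr4:89306299-89311039 on the minus strand. All 3 were highest in the same 2 lines, V and K, in mono-culture. Their RefSeq promoter windows (GRCm38.p6, 250 bases before to 50 after a start, read on the gene's strand) are shown because these neighbors had similar patterns over the lines; capitals mark GGGCGG, the core of a GC box, and in Mtap CCAAT:
Cdkn2a first start, that of p19Arf (chr4:89294570-89294869, minus strand): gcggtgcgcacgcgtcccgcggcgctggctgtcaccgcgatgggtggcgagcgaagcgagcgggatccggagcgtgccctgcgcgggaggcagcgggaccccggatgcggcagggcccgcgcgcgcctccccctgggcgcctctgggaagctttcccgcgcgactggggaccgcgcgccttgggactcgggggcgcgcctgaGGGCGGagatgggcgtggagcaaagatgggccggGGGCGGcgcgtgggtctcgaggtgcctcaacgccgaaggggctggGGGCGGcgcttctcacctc
Cdkn2a second start, that of p16Ink4a (chr4:89282143-89282442, minus strand): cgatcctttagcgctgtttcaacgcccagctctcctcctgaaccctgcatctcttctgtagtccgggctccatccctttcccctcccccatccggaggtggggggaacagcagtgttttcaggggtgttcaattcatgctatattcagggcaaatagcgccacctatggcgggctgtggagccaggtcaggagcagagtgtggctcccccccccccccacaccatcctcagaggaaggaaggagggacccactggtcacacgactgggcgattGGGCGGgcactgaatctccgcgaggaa
Cdkn2b (chr4:89310983-89311282, minus strand): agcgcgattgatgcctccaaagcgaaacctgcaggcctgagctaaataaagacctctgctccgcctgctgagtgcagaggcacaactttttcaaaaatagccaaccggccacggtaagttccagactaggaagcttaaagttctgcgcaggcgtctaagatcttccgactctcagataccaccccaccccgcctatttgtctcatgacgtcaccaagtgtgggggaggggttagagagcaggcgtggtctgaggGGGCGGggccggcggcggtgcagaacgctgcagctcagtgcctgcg
Mtap (chr4:89137120-89137419, plus strand): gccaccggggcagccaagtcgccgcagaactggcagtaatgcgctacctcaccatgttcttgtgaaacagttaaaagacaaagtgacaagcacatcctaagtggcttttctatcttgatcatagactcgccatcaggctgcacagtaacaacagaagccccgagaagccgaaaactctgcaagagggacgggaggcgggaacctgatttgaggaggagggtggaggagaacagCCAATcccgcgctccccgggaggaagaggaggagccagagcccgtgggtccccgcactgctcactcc
Searched on both strands, GGGCGG had 3 matches in the first Cdkn2a window, 1 in the second and 1 in Cdkn2b, and none in Mtap. It was in 35.7% of all 32851 windows. CCAAT had 1 match in Mtap and 1 in the second Cdkn2a window, where it overlaps GGGCGG on the other strand, and was in 37.4% of all windows. The G and C content was 77% in the first Cdkn2a window and between 57% and 60.3% in the other 3. The counts per gene did not separate the 2 Cdkn2a transcripts.

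Cdkn2a ranged from 81.1 CPM in T to 490.1 CPM in K. The libraries of K held 549.9, 489, 540.2 and 381 CPM and those of V 474, 463, 463 and 452 CPM, overlapping each other and above every library of the other lines. H followed with 207, 262, 215 and 248 CPM, apart from KPC1 (180.0, 176, 158 and 203) and M (159, 178, 174 and 148), which overlapped. The lowest were E (111, 134, 113 and 110.2), N (84.1, 90.8, 92.4 and 112) and T (77.4, 84.9, 89.3 and 73), each overlapping its neighbor in that order. On the log2 scale the difference from the mean of the other lines was 1.60 ± 0.07 (adjusted p = 7.04e-26) in K and 1.51 ± 0.07 (adjusted p = 8.83e-25) in V, and -1.11 ± 0.09 (adjusted p = 7e-15) in N and -1.36 ± 0.10 (adjusted p = 7.62e-18) in T.

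Cdkn2b followed the same order at the top. K held 294, 259, 311 and 191 CPM and V 235, 251, 239.5 and 213 CPM, with differences of 1.41 ± 0.11 (adjusted p = 3.36e-17) and 1.22 ± 0.11 (adjusted p = 1.63e-14) on the log2 scale. H and KPC1 overlapped at 129.9 ± 11 and 129 ± 21.2 CPM, and N, T and E lay between 72.2 and 87.2 CPM. M parted the 2 genes: its Cdkn2b libraries held 47, 57.3, 55.4 and 48.1 CPM, the lowest mean of all lines and a difference of -1.27 ± 0.13 (adjusted p = 8.61e-12), while for Cdkn2a M was the fifth of 8 lines.

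Mtap varied less, from 45.7 CPM in T to 124 CPM in V. V held 127, 129, 123 and 115 CPM and K 142, 93.5, 119 and 83.4 CPM. The 4 libraries of K spread widely and yet all lay above those of KPC1, M, H, N, E and T. The difference from the other lines was 0.84 ± 0.07 (adjusted p = 2.03e-15) in V, 0.64 ± 0.07 (adjusted p = 2.59e-11) in K and -0.80 ± 0.08 (adjusted p = 3.81e-12) in T, on the log2 scale. H, M and KPC1 were not called. With the sheet as a covariate the calls of K for Cdkn2a, Cdkn2b and Mtap remained.

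Over the mono-culture means in log2 CPM, Cdkn2a and Mtap had r = 0.952 over 8 lines and 0.861 over the 6 lines other than K and V. For Cdkn2a and Cdkn2b the values were r = 0.859 over 8 lines and 0.471 over the 6 lines other than K and V, and for Cdkn2b and Mtap r = 0.801 over 8 lines and 0.341 over the 6 lines other than K and V. The likeness of Cdkn2b to the other 2 thus rested largely on K and V, and that of Cdkn2a and Mtap did not. Likeness was not particular to these neighbors. Smad4, on chromosome 18, had r = 0.766 with Cdkn2a over 8 lines and 0.745 without K and V. With Cdkn2b it had r = 0.795 and 0.813, and with Mtap r = 0.678 and 0.495. Without K and V, Cdkn2b was closer to Trp53 (r = 0.919) than to Cdkn2a or Mtap. In coculture Cdkn2a and Mtap had r = 0.837 over 8 lines and 0.882 over the 6 lines other than K and V. The factor Trp53 and its target Cdkn1a had r = 0.735 over 8 lines and 0.72 over the 6 lines other than K and V in mono-culture, and r = 0.45 over 8 lines and 0.12 over the 6 lines other than K and V in coculture. These are descriptions, since the 7 clones share 1 parent tumor and all genes of a line share its libraries.

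Other genes within 1 Mb of Cdkn2a, named after their values were seen, did not all stand with the trio. Klhl9 lay at 71.1 CPM in K and 73 in V, against 60.8 to 74.2 in the other lines, and was not called in either. Focad was lower in K (-0.74, adjusted p = 8.8e-06), and so was Wincr1 (-1.11, adjusted p = 0.000226). Of 10 tested neighbors, 4 were called higher and 2 lower in K, and 4 higher and 1 lower in V. Over all 14134 genes tested, 4755 were called higher and 4474 lower in K, and 4471 higher and 3852 lower in V. The 10 neighbors include Mtap and Cdkn2b, already given above as high in both lines. The 4 called higher were the same in both lines: Gm12602, Mtap, Cdkn2b and Dmrta1, which with Cdkn2a follow one another among the tested genes. Gm12602, a noncoding gene beside Mtap, differed by 0.70 in K and 0.97 in V at 2.55 and 3.01 CPM, and it was higher in M too (0.84). Dmrta1 differed by 0.40 and 0.42, but had its highest levels in KPC1 and H, at 8.43 and 8.13 CPM. Copy number was not measured.

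**Figure D3:**
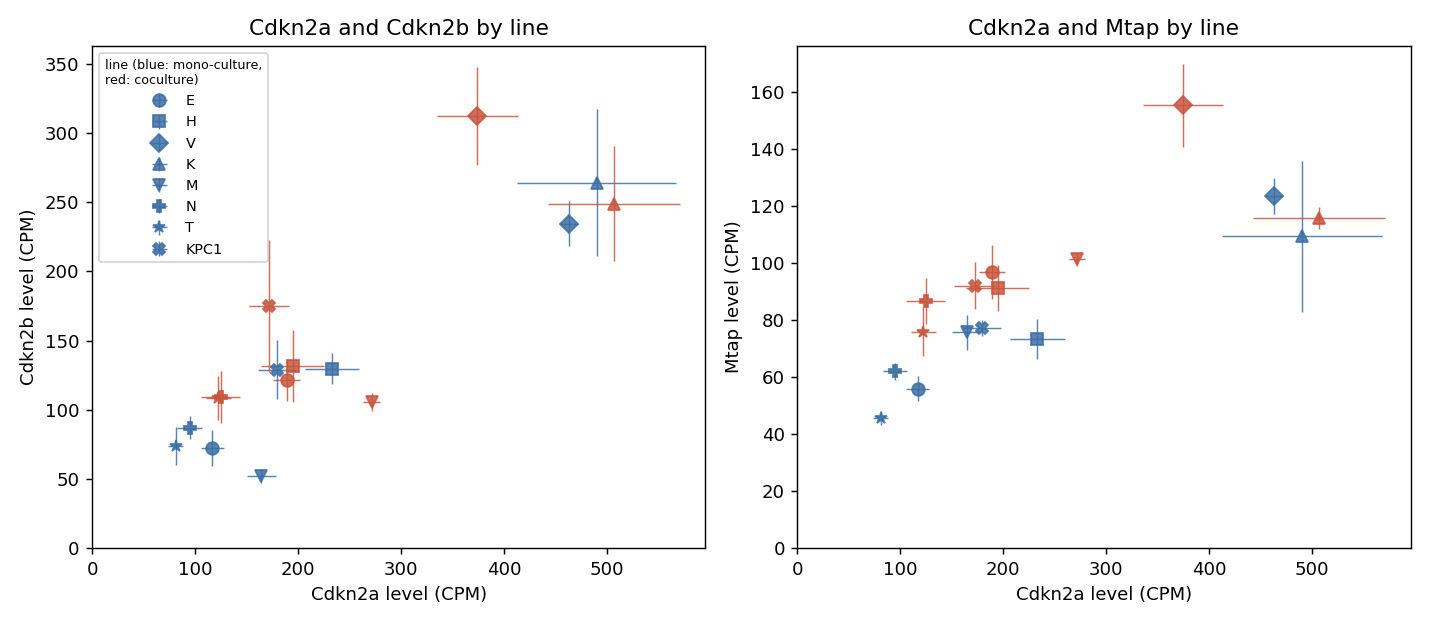
Mean CPM of Cdkn2a (horizontal axes) against Cdkn2b (left) and Mtap (right) in each line, in mono-culture (blue) and coculture (red), with bars of 1 SD (n = 4). V and K sit at the upper right in both cultures, at 463 and 490.1 CPM of Cdkn2a in mono-culture, and mono-cultured M has the lowest Cdkn2b.

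Trp53 was abundant in every library, never under 2507 counts. Its mono-culture means fell into 2 runs of lines with overlapping ranges inside each. KPC1 (390.5 ± 33.1 CPM), H (366 ± 8.85), V (361 ± 18.8) and N (345 ± 20.2) formed the upper one. K (274 ± 23.6), E (271 ± 6.63), T (261 ± 28) and M (259 ± 23.1) formed the lower, and the libraries of N and K did not overlap. All 8 lines were called, 4 higher and 4 lower, with differences of -0.31 to 0.37 on the log2 scale. The call in N (adjusted p = 0.0614) was lost without a filter on low counts.

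Mdm2 was highest in K. Its libraries in K held 135, 111, 125 and 107 CPM, above every library of the other 7 lines, and the difference was 0.72 ± 0.07 (adjusted p = 5.42e-13) on the log2 scale. M followed at 85.8 ± 3.72 CPM, and the remaining lines lay between 65.3 and 79.2 CPM with overlapping ranges. M was called higher and KPC1, T and V lower, with differences of -0.28 to 0.17. K, highest in Mdm2, had Cdkn1a at 13 ± 2.17 CPM, which was not called against the other lines by edgeR.

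Rb1 and Smad4 spanned 1.83-fold and 1.71-fold between the highest and lowest line, close to the 1.83-fold of Mdm2. Rb1 was called higher in E, where the libraries held 33.2, 31.2, 33 and 32.3 CPM, a difference of 0.61 ± 0.12 (adjusted p = 1.83e-05). It was called lower in H, with 19, 20.1, 18 and 13.7 CPM, and in V, with 18.1, 16.7, 19.8 and 17.2 CPM. Smad4 was highest in H, with 172, 177, 167 and 152 CPM and a difference of 0.55 ± 0.06 (adjusted p = 1.82e-11), and in V, with 151 ± 3.51 CPM, and the libraries of these lines overlapped. It was lowest in N, E, T and M, at 97.7 to 106 CPM with overlapping ranges, and each of these was called lower. Rb1 overlaps Lpar6 and Rcbtb2 on the other strand, Mtap overlaps Gm12607, Cdkn1a overlaps AC167363.2 and Smad4 overlaps AC132418.2. The kit kept strand, but the counting setting is not given in the sources used here, so reads of such pairs may not have been told apart.

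Coculture was compared with mono-culture over the 8 lines first, with the 4 libraries of each line and culture summed and the line as a covariate, so that the lines were the replicates. Of the 8 genes, 4 were called higher and 0 lower, and over all 14478 genes tested 54.6% were called, 27.2% higher and 27.4% lower. Mtap rose by 0.42 ± 0.08 (adjusted p = 0.00359) on the log2 scale and was higher in 8 of 8 lines. Cdkn2b rose by 0.43 ± 0.12 (adjusted p = 0.0144), higher in 7 of 8. Trp53 rose by 0.18 ± 0.07 (adjusted p = 0.0698) and Cdkn1a by 0.43 ± 0.19 (adjusted p = 0.0861), each higher in 7 of 8. Mdm2 missed the threshold at 0.17 ± 0.08 (adjusted p = 0.105), and so did Cdkn2a at 0.23 ± 0.13 (adjusted p = 0.185), Rb1 at 0.21 ± 0.15 (adjusted p = 0.268) and Smad4 at 0.06 ± 0.05 (adjusted p = 0.296).

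The calls of Mtap and Cdkn2b held in all 8 fits that left out 1 line. Leaving out E, M or T left 2 called genes in each case. Cdkn1a kept its call in 2 of 8 such fits and Trp53 in 4 of 8, whereas Mdm2 passed the threshold with RLE normalization, DESeq2, a filter of 1 CPM or only the libraries numbered up to 43. On those libraries, which held 7 of the lines in both cultures, Trp53 lost its call and Rb1 gained one. Markers of fibroblasts rose with coculture, as given above, and their part in these changes was not tested. In bulk samples fewer cells of a type and less RNA per cell cannot be told apart.

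Within lines, on the 64 libraries, the responses were unequal. Of 64 pairs of gene and line, 32 were called, 29 higher and 3 lower, beside 45.6% over all genes (23.7% higher and 21.9% lower). The libraries of the 2 cultures did not overlap in 28 pairs, beside 35.3% over all genes. T had 7 of the 8 genes called, where 62.2% of all genes were, and M had 6, where 38.9% were. V had 5 beside 61.5%, E had 4 beside 61.3% and KPC1 had 4 beside 39.2%. H had 3 beside 44%, N had 2 beside 37.4% and K had 1 beside 20.5%. The call of Mdm2 in KPC1 was lost in 4 of 8 fits without 1 of that line's libraries, and those of Cdkn1a in T and Mtap in KPC1 in 1 and 2 of 8. The interaction of line and culture was called for 7 of the 8 genes, beside 71.3% over all genes, the exception being Smad4 (adjusted p = 0.387).

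**Figure D4:**
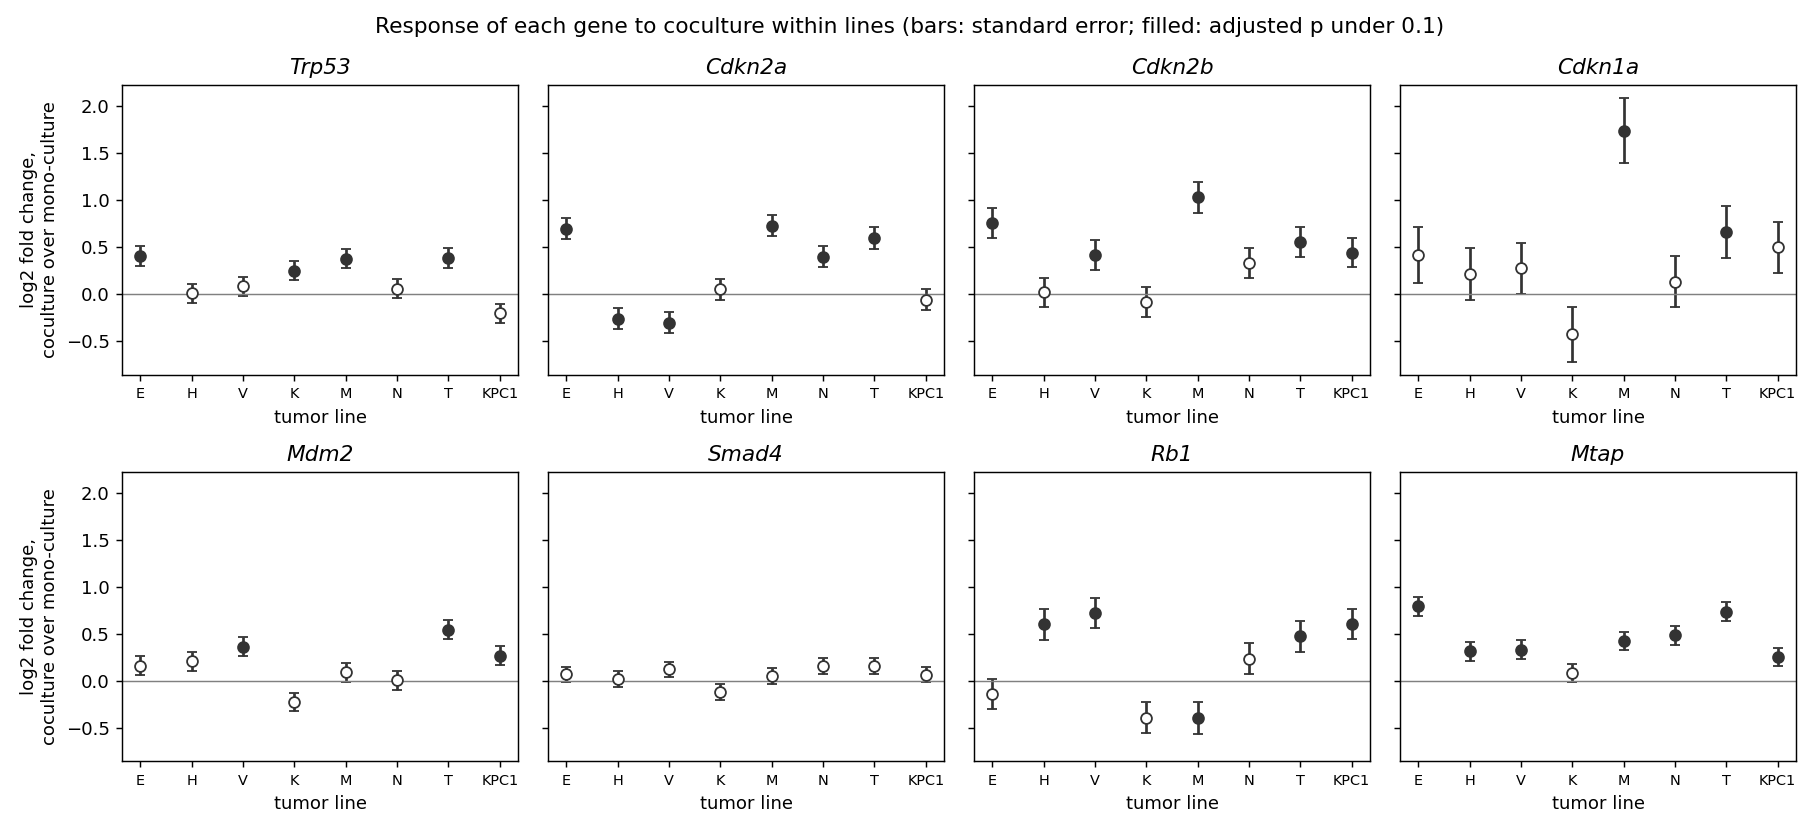
Log2 fold change from mono-culture to coculture (vertical axis) of each gene in each line (horizontal axis), with bars of 1 standard error and filled points for an adjusted p under 0.1. Mtap lies above 0 in all 8 lines, Cdkn2a is called above 0 in E, M, N and T and below in H and V, and Cdkn1a reaches 1.74 in M.

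Mtap rose in 7 of 8 lines, from 0.25 ± 0.10 (adjusted p = 0.0458) in KPC1 to 0.79 ± 0.10 (adjusted p = 4.46e-09) in E. In E its libraries went from 58.6, 61, 52.6 and 52.2 CPM to 110.3, 89.5, 91.1 and 96.7 CPM, and in T from 44.1, 49.1, 45.5 and 44.3 to 68.5, 84, 82.9 and 68.6 CPM, with no overlap in either. N went from 64.9, 59.9, 59.3 and 64.6 to 74.7, 90.0, 92.7 and 89.6 CPM, M from 76.3, 82.8, 75.8 and 68 to 98, 102, 103 and 103 CPM and V from 127, 129, 123 and 115 to 163, 167, 158 and 134 CPM, also without overlap. V remained the highest line, apart from K, which was apart from the other 6. The line not called was K, where the cocultures held 120.2, 117, 111 and 116 CPM, within the wide range of the mono-cultures. The fibroblast markers summed to 1235 CPM in cocultured K, the highest mean of the lines, and to 598 CPM in E, the lowest. The call in KPC1 was lost with the sheet as a covariate.

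Cdkn2a moved both ways, and its interaction of line and culture was called (adjusted p = 9.55e-09). It rose in M by 0.72 ± 0.11 (adjusted p = 1.99e-06), in E by 0.69 ± 0.11 (adjusted p = 9.28e-07), in T by 0.59 ± 0.11 (adjusted p = 1.42e-05) and in N by 0.40 ± 0.11 (adjusted p = 0.00647). In M the libraries went from 159, 178, 174 and 148 CPM to 260.3, 272, 275 and 279 CPM. In V they went down from 474, 463, 463 and 452 to 431, 362, 343 and 361 CPM, without overlap, a change of -0.31 ± 0.11 (adjusted p = 0.0174). H also fell, with a change of -0.26 ± 0.11 (adjusted p = 0.0615) and overlapping ranges, and the call was lost in 4 of 8 fits without 1 of its libraries and with no filter on low counts. K and KPC1 were not called. The range of the means narrowed from 6.04-fold in mono-culture to 4.14-fold in coculture, with K and V still highest. A line's response and its mono-culture level share libraries.

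Cdkn2b rose in M by 1.03 ± 0.16 (adjusted p = 2.27e-06), from 47, 57.3, 55.4 and 48.1 CPM to 95.9, 111, 109 and 108 CPM, and in E, T, V and KPC1 by 0.41 to 0.75. M was still the lowest line by mean, but at 106 ± 6.67 CPM its libraries overlapped those of T, N and E. In E they went from 68.4, 81.3, 83.5 and 55.7 to 136, 119.6, 129 and 102 CPM, and in V from 235, 251, 239.5 and 213 to 301, 349, 331 and 269 CPM, neither with an overlap. V is the line where the neighbors parted in coculture, Cdkn2b rising by 0.41 ± 0.16 (adjusted p = 0.0222) and Cdkn2a falling. N missed the threshold at 0.33 ± 0.16 (adjusted p = 0.112) and passed it with a replicate block (adjusted p = 0.0164). The KPC1 call was lost in 3 of 8 fits without 1 of its libraries.

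Cdkn1a rose in M by 1.74 ± 0.35 (adjusted p = 0.000107), the largest response of the 64, from 1.41, 1.48, 3.74 and 2.25 CPM to 4.07, 5.84, 11.4 and 8.21 CPM. M nevertheless kept the lowest mean in coculture, 7.37 ± 3.16 CPM, but its libraries then overlapped those of K (7.86, 7.59, 12.8 and 10.6 CPM) and E (9.94, 8.57, 11.9 and 12.1 CPM). T rose by 0.66 ± 0.28 (adjusted p = 0.0372). By mean level, M, K and E formed the low end in coculture and H, T, KPC1, V and N the high end, and the libraries of E and H were apart. The other 6 lines were not called, N among them, at 41.4 ± 23.5 CPM in mono-culture and 45.3 ± 17.3 CPM in coculture.

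In E the Trp53 libraries went from 272, 279, 268 and 264 CPM to 381, 379.8, 352 and 319.7 CPM, and in T from 255, 275, 291 and 226 to 337, 334, 350.4 and 344 CPM. In M they went from 271, 257, 279.9 and 227 to 337, 339, 342 and 324 CPM, and in none of these 3 lines did the cultures overlap. Trp53 rose in E by 0.40 ± 0.10 (adjusted p = 0.000802), in T by 0.38 ± 0.10 (adjusted p = 0.00128), in M by 0.38 ± 0.10 (adjusted p = 0.00387) and in K by 0.25 ± 0.10 (adjusted p = 0.0955), the 4 lines with the lowest mono-culture means. Here too, a line's response and its mono-culture level share libraries. The range of the means was 1.51-fold in mono-culture and 1.18-fold in coculture, where no 2 neighboring lines were apart. The 4 lines highest in Trp53 in mono-culture were not called, and H, for one, held 361, 379, 367 and 359 CPM and then 361, 366, 366 and 379.7 CPM. In KPC1 the cocultures spread from 236 to 438 CPM. The call in K was lost in 6 of 8 fits without 1 of its libraries. Mdm2, a target and a brake of p53, rose in T by 0.54 ± 0.10 (adjusted p = 8.52e-06), in V by 0.36 ± 0.10 (adjusted p = 0.00202) and in KPC1 by 0.26 ± 0.10 (adjusted p = 0.0387). In T its libraries went from 71.1, 61.3, 68.1 and 65.9 to 86.4, 104, 98.7 and 98.1 CPM, without overlap. H missed the threshold at 0.21 ± 0.10 (adjusted p = 0.102), and passed it with RLE normalization, DESeq2, a filter of 1 CPM or limma on RPKM. In K the Mdm2 libraries did not overlap between cultures, at 135, 111, 125 and 107 CPM in mono-culture and 105, 102, 105 and 97 CPM in coculture, yet the change missed the threshold at -0.23 ± 0.10 (adjusted p = 0.122). K kept the highest mean of Mdm2 in coculture, 102 CPM, but no longer apart from T (96.9 CPM).

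The Rb1 libraries of V went from 18.1, 16.7, 19.8 and 17.2 CPM to 22.3, 31.1, 36.8 and 27.9 CPM and those of KPC1 from 28.2, 28.3, 22.3 and 20.8 to 47.5, 32.8, 32.1 and 38.9 CPM, in both without overlap. Rb1 rose in V by 0.72 ± 0.16 (adjusted p = 0.000204), in KPC1 by 0.60 ± 0.16 (adjusted p = 0.00342), in H by 0.60 ± 0.16 (adjusted p = 0.00321) and in T by 0.47 ± 0.16 (adjusted p = 0.0109). It fell in M, from 19.9, 20.4, 21 and 21 CPM to 15.8, 15.9, 14.1 and 16.9 CPM, a change of -0.39 ± 0.17 (adjusted p = 0.0628) with no overlap, a call lost in 3 of 8 fits without 1 library. K missed the threshold at -0.39 ± 0.16 (adjusted p = 0.101). It passed with a filter of 1 CPM, a replicate block or the sheet as a covariate. The mono-cultures of K were all on the second sheet, and its cocultures were 2 on each. By mean level in coculture Rb1 ran from 15.7 CPM in M to 37.8 CPM in KPC1, and E, highest in mono-culture, was the fourth of 8 lines. Smad4 was called in 0 of 8 lines by edgeR, with changes between -0.12 and 0.16 and standard errors near 0.08. Unadjusted, 0 of the 8 lines passed 0.05 for Smad4, and DESeq2 called 1, T, where the libraries went from 94, 97.7, 98.9 and 102 to 105, 108, 108 and 116 CPM without overlap. H and V stayed the highest in Smad4, at 169 ± 12.4 and 165 ± 16.5 CPM in coculture, apart from the other 6 lines.

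The pathways around these genes were followed in lists of known members, over the 8 lines, where the median change of all 14478 genes was -0.001 on the log2 scale and 27.2% of them rose and 27.4% fell. Of 32 p53 targets, 13 rose and 7 fell, beside 27.2% and 27.4% of all genes, with a median of 0.22. The 4 with the smallest p-values were Eda2r, Polk, Bax and Btg2. Eda2r, a death receptor of the TNF receptor family, rose by 2.86 ± 0.47 (adjusted p = 0.00226), and Polk, a translesion polymerase, by 0.85 ± 0.15 (adjusted p = 0.00247). The change of Eda2r started from low levels, near zero in mono-cultured H and K and at most 4.27 CPM in any mono-cultured line. Bax, which opens the mitochondrial membrane in apoptosis, rose by 0.43 ± 0.08 (adjusted p = 0.00277), and Btg2 changed by -1.65 ± 0.30 (adjusted p = 0.00309). Of 13 tested regulators of p53, 6 rose and 2 fell, beside the same shares of all genes, led by the checkpoint kinases Chek2 (0.76) and Chek1 (0.60), which rose, and the acetyltransferase Ep300 (-0.34) and the kinase Hipk2 (-0.56), which fell.

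Of 21 tested genes of the Rb pathway, 8 rose and 2 fell, beside 27.2% and 27.4% of all genes, with a median of 0.23. Cyclins E2 and E1 rose (1.35 for Ccne2 and 1.18 for Ccne1), as did the repressors E2f7 (0.68) and E2f4 (0.36). All 16 E2F targets tested rose, beside 27.2% of all genes, with a median of 0.56. Cdt1, a licensing factor of DNA replication, rose by 1.16 ± 0.11 (adjusted p = 0.000172), the helicase subunit Mcm2 by 0.80 ± 0.10 (adjusted p = 0.000773) and Rrm1 by 0.47 ± 0.07 (adjusted p = 0.0016).

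The E2F targets were lowest in mono-cultured K and M, with a mean of 4.06 and 4.58 log2 CPM against 5.25 to 6.15 in the other 6 lines. Against the other lines, 14 of 16 were called lower in K, beside 31.7% of all genes, and 16 of 16 in M, beside 28.9%. In E 14 of 16 were called higher and in KPC1 15 of 16, beside 27.8% and 34.9%. In coculture 16 of 16 rose in M and 14 of 16 in K, beside 21.6% and 12.5% of all genes, while 3 of 16 rose in KPC1 and 5 of 16 in N, beside 20.1% and 20%. A line's rise and its mono-culture level share libraries here as well. K and M remained the lowest in coculture, at 5.27 and 5.58 log2 CPM against 5.80 to 6.73 in the other 6 lines. In mono-culture M was the lowest line in Cdkn1a and K the sixth of 8, and they differed in Cdkn2a, which was at 490.1 CPM in K and 164 CPM in M.

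Of 17 genes of the SMAD pathway, 11 fell and 3 rose, beside 27.4% and 27.2% of all genes, with a median of -0.40, while Smad4 was not called. The BMP-responsive Id genes fell, with changes of -2.05 ± 0.19 (adjusted p = 0.000143) for Id2, -1.62 ± 0.24 (adjusted p = 0.00152) for Id3 and -1.33 ± 0.21 (adjusted p = 0.00184) for Id1, and the inhibitory Smad6 fell with -1.12 ± 0.13 (adjusted p = 0.000709). Of 12 genes around methionine salvage, 7 rose and 2 fell, beside 27.2% and 27.4% of all genes, with a median of 0.22. The 4 with the smallest p-values were Prmt5, the arginine methyltransferase inhibited by methylthioadenosine (0.47), spermidine synthase Srm (0.77), the transaminase Got1 (0.97) and spermine synthase Sms (0.72). Of 12 other suppressors of pancreatic cancer, 0 rose and 10 fell, beside 27.2% and 27.4% of all genes and with a median of -0.20, among them the chromatin genes Kmt2d (-0.45), Kmt2c (-0.80), Arid1a (-0.41) and Pbrm1 (-0.32).

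**Figure D5:**
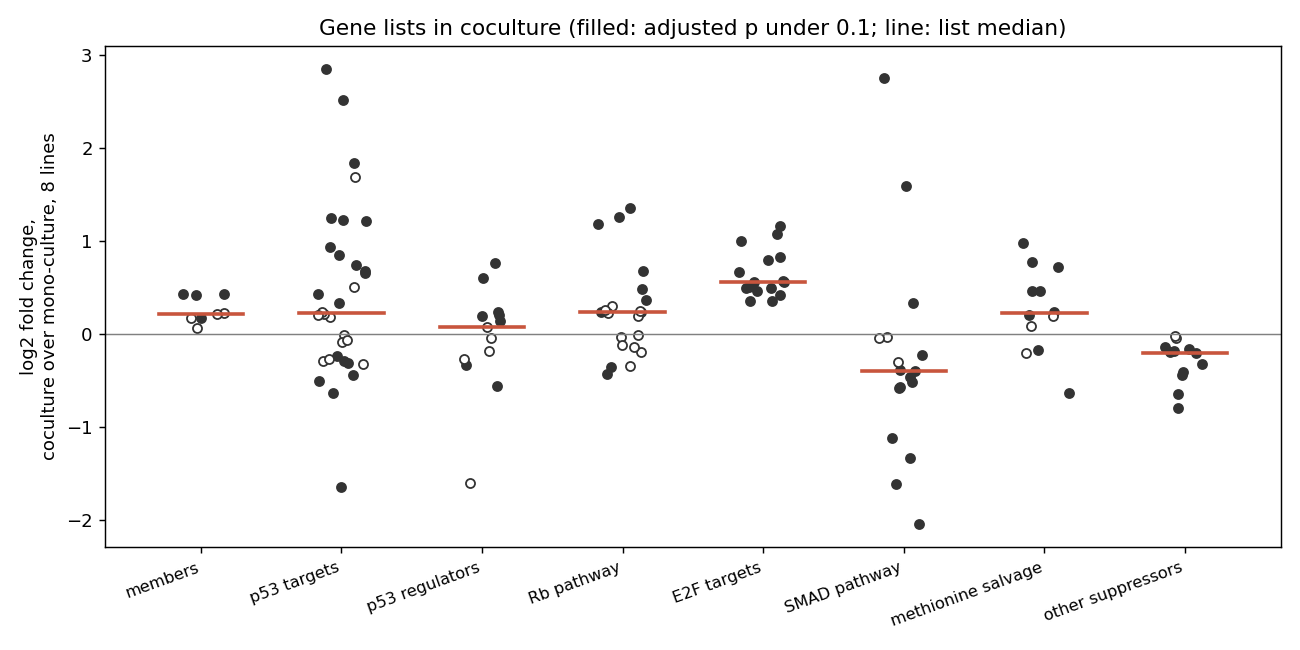
Log2 fold change from mono-culture to coculture over the 8 lines (vertical axis) for the genes of each list (horizontal axis), filled where the adjusted p was under 0.1, with the list median as a line. The list named members holds the 8 genes described here. All 16 E2F targets lie above 0 and the SMAD pathway has a median of -0.40.

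A few genes of these lists were near zero in some lines and not in others in mono-culture. Sulf2, a heparan sulfatase, had 2 counts over the 4 libraries of M and 5 over those of E, against 13.3 CPM in V. Eda2r was near zero in H and K, with 2 and 4 counts, and at 4.27 CPM in KPC1. Gdf15, a stress cytokine, was near zero in V, with 6 counts, and at 4.45 CPM in KPC1. Smad9, a SMAD of BMP signaling, had no count in E, H, V, N, T and KPC1, where 3 counts are the limit that a count of 0 allows, and 93 counts in M. The fibroblast gene Col1a2 was near zero in E and M.

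The study's methods put E, H and V in group 1 and the other 4 clones in group 2, and the 8 genes were compared between these groups on the mono-culture sums of the clones, 3 against 4, without KPC1. By edgeR's quasi-likelihood test 0 of the 8 genes were called, beside 0.0% of 14829 genes. At an unadjusted p under 0.05 there were 0 of the 8 genes and 5.17% of all genes, and DESeq2 called 117 genes and none of the 8. The clone means of the groups overlapped for each of the 8. For Smad4 the mean was 139 ± 35.4 CPM (SD, n = 3) in group 1 and 109 ± 17.3 CPM (n = 4) over the clones of group 2, a difference of 0.36 ± 0.22 (edgeR adjusted p = 0.888). The 2 lines highest in Cdkn2a were in different groups, V in group 1 and K in group 2. The difference between groups had a standard error of 0.73 on the log2 scale for Cdkn2a and 0.87 for Cdkn1a.

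Finally, the genes whose mean log2 CPM over the 16 line and culture means was most like each of the 8 are given with Pearson's r, as descriptions, since the points share lines and libraries and the genes were the highest of 14134. For Trp53 they were Rcn3 (0.914), Senp3 (0.911) and Has2 (0.909). For Cdkn2a they were Dnajb5 (0.981), Cnn3 (0.949) and Mex3a (0.946), the first also on chromosome 4. For Cdkn2b they were Dhx38 (0.924), Nkain1 (0.91) and Gm16286 (0.908), and for Cdkn1a Nt5e (0.931), Rai14 (0.921) and Mief1 (0.919). For Mdm2 they were Txndc16 (0.88), Ggt5 (0.879) and Yeats4 (0.858), for Rb1 Mafk (0.933), Rheb (0.89) and Ube2g2 (0.89), for Smad4 Wac (0.948), Mex3c (0.945) and Sox11 (0.942), and for Mtap Zmym1 (0.933), Polb (0.913) and Tg (0.91). No member was among the 3 nearest of another. Senp3 lies on chromosome 11 with Trp53, Ggt5 and Yeats4 lie on chromosome 10 with Mdm2, Nkain1 and Zmym1 lie on chromosome 4 with Cdkn2b and Mtap, and Wac and Mex3c lie on the chromosome of Smad4.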

How the data were processed

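Per the labels, poly(A) RNA of each culture was sequenced as strand-specific paired-end 76-base reads. The authors deposited a table of raw read counts per gene (39017 genes) and a table of RPKM values (reads relative to gene length and library total) per gene (49585 genes). The processing notes name featureCounts, edgeR and mm10, and the aligner is not given in the sources used here. All 64 columns of each table were matched to samples by name, with 0 left over, and the 4 replicate numbers came from the same titles.

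Counts were tested with edgeR 4.0.16 (quasi-likelihood test, TMM normalization, filterByExpr, Benjamini-Hochberg adjustment, threshold 0.1) in R 4.3.3: within lines and between lines on 64 libraries in 1 fit of 16 groups, and across lines and between clone groups on counts summed per line and culture. CPM are counts scaled by the library total. A gene was near zero with at most 3 counts over 4 libraries or under 0.1 CPM, and low under 0.1 of the median of the other lines. Intervals of counting error are not given, since replicate spread is. The fits were tested on simulated data. Alternatives used DESeq2 1.42.0, limma 3.58.1 on log2(RPKM + 1), other filters, RLE size factors, sheets and left-out libraries, clones or lines.

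All 153 list genes were matched, 4 of them through their gene IDs in GENCODE M21 and the others by the symbol in the count table. Promoter windows were those of RefSeq on GRCm38.p6, where 6 of the 8 genes matched (Rb1 and Smad4 did not). Named genes were the 8 genes, up to 4 of each list with the smallest p across lines, neighbors within 1 Mb of a gene that was near zero or low, the 3 most alike genes, and list genes near zero in 1 to 7 lines and above 1 CPM in another. 1 gene that this rule names is not reported here. The 8 genes and the lists were chosen with earlier results of these data known.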

Additional observations from a re-analysis of the deposited data

Results flagged for a closer look

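In 4 of 128 sets of 4 libraries, 1 library stood apart from the other 3 by the Dixon ratio, which chance does for about 1 set in 20. They were Trp53 in cocultured V, where replicate 2 held 432 CPM, Cdkn2a in mono-cultured E, where replicate 2 held 134 CPM, Cdkn2b in mono-cultured H, where replicate 2 held 146 CPM, and Rb1 in cocultured T, where replicate 1 held 22.3 CPM and was the low one. The response to coculture differed between lines for 7 of the 8 genes by edgeR's test of the interaction, beside 71.3% over all genes. The adjusted p was 9.55e-09 for Cdkn2a, 1.05e-05 for Rb1, 0.000211 for Mtap, 0.000376 for Mdm2, 0.000457 for Cdkn2b, 0.00135 for Trp53 and 0.00578 for Cdkn1a.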

How the results depend on the processing

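Of the 8 genes, 4 were called across lines in the main analysis, 2 at an adjusted p under 0.05, and 2 to 5 when 1 line was left out (2 without E, M or T). Within lines 32 pairs of gene and line were called and 29 to 35 without 1 library. Between lines 49 pairs were called and 46 to 50 without 1 library. The interaction was called for 7 genes without any of the 4 replicate numbers, and over all genes in 8136 to 8622 against 10080. Across lines 7909 genes were called, and 6735 to 8069 without 1 line. Between clone groups 0 of 14829 genes were called by edgeR, 1 without a filter on low counts, 117 by DESeq2, and 0 to 217 without 1 clone (217 without E and 1 without M); none of the 8 was called in these. No called value of the 8 genes reversed under any alternative run, and of 3888 values 47 that were called in neither fit changed sign. The cause of these shifts was not tested.

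Deviations of same-numbered mono- and cocultures correlated above 0.1 in 23 of 32 pairs. The median was 0.296 and the range -0.123 to 0.585. The replicate numbers thus paired the samples in part and unevenly between lines, and the main fits held no term for them. In V, M and N all 4 pairs were above 0.1. With a replicate block on libraries all 8 genes were called across lines, 3 of the 8 genes and 3619 of all genes between clone groups, 40 pairs within lines and 50 between lines. The 8 pairs gained within lines were Cdkn2b in N, Mdm2 in H and K, Rb1 in K, Trp53 and Cdkn1a in KPC1, Cdkn1a in E and Smad4 in T, and none was lost. There the libraries and not the lines or clones are the replicates. The interaction with a replicate block, chosen after seeing the data, was called for 7 genes.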
